A study of Mus musculus with 112 samples.

Results

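Peg10, Sgce, Mest, Peg3, Plagl1, Zrsr1, Impact and Nnat are imprinted genes that mouse cells read mainly or only from the chromosome inherited from the father. They were chosen by name and are 8 of the 25209 genes in the count files, and their levels were taken in every library as counts per 1000000 counts (CPM). The study removed or inactivated the histone H3K4 demethylase LSD1 (gene Kdm1a), its corepressor partners RCOR1 and RCOR2, and the H3K4 methyltransferase MLL4 (gene Kmt2d) in mouse embryonic stem cells (ESCs), and sequenced RNA from naive cells and from differentiating cultures. All lines derive from V6.5 ESCs kept in 2i/LIF, the inhibitor and cytokine mixture that holds ESCs in the naive state. At least 2 biological replicates from independent clones were used per genotype, but which library came from which clone is not given in the labels, so p-values measure only the spread between these libraries, which may be technical.

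The untreated naive ESC groups were LSD1 KO (promoter and first exon deleted, 6 libraries), LSD1 CI (catalytically inactive LSD1, 4), RCOR1 KO (4), RCOR2 KO (4), RCOR1/2 DKO (4), MLL4 KO (2), MLL4/LSD1 DKO (4), MLL4KO/LSD1CI (4) and WT (11). The last pair of double mutants was made by deleting MLL4 in LSD1 KO and in LSD1 CI cells. Embryoid bodies (EBs), aggregates grown for 6 days in hanging drops, were made from LSD1 KO (2 libraries), LSD1 CI (4), RCOR1 KO (4), RCOR2 KO (2), RCOR1/2 DKO (4) and WT (7) cells. Cells grown 4 days in serum without 2i/LIF (FBS) and epiblast-like cells (EpiLCs, 2 days) came as LSD1 KO, LSD1 CI and WT with the solvent DMSO, and as LSD1 KO with A485, an inhibitor of the acetyltransferases p300 and CBP, 2 libraries each. A485 and DMSO were also given to LSD1 KO ESCs and LSD1 KO EBs, with WT EBs in DMSO, 2 libraries each. Doxycycline (DOX), which switches on an LSD1 transgene, was added to or left out of LSD1 KO cells carrying it (LSD1Res, 4 and 4), RCOR1/2 DKO cells carrying it (DKO+LSD1, 4 and 4) and plain LSD1 KO cells (2 and 2).

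Imprinted genes carry a DNA methylation mark set in the egg or the sperm, which silences the copy from 1 parent in the embryo. For the genes described here the mark comes from the egg, so the maternal copy is normally silent and the paternal copy active. The mark is kept through cell division by the zinc finger protein ZFP57, which binds a methylated hexamer in imprinting control regions, and its loss in cultured ESCs is well known to let the silent copy be read. RNA counts over a gene cannot tell the 2 parental copies apart, so nothing below concerns which copy was read.

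The promoters are shown because the members' control regions are where the parental mark lies. Windows of 300 bases (250 before to 50 after a RefSeq start, build GRCm38.p6) were available for 5 of the 8 genes: Nnat, Mest (3 windows), Peg3, Plagl1 and Zrsr1. Peg10, Sgce and Impact are not in the table used. The windows were searched for the unmethylated letters of the ZFP57 hexamer, TGCCGC, on both strands (GCGGCA on the other), shown in capitals, 5′ to 3′ on the strand of the gene.
Nnat, chr2:157559828-157560127, plus strand: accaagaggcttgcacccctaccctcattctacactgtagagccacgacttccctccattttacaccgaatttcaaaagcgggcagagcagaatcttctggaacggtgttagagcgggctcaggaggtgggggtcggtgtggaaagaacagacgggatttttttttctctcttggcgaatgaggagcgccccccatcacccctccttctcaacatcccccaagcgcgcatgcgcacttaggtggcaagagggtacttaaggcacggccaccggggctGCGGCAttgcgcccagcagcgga
Mest, chr6:30737800-30738099, plus strand: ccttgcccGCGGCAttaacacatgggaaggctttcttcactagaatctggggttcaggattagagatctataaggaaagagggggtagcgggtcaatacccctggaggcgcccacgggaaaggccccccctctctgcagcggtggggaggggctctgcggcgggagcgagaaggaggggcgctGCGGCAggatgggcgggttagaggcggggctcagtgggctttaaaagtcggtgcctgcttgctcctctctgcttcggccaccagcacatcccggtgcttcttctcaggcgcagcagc
Plagl1, chr10:13090582-13090881, plus strand: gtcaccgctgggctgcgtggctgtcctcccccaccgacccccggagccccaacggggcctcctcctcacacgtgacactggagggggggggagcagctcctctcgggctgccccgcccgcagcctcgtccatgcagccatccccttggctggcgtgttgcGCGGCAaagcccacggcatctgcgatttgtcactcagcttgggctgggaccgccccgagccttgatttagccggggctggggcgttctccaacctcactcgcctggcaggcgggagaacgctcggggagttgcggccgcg
The Mest window held 2 matches and the Nnat and Plagl1 windows 1 each, whereas 11.6% of the 32851 mouse promoter windows held any and 1.53% held 2 or more. No match was found in the Peg3 and Zrsr1 windows or in the Mest window that starts at 30733256. The count of CG pairs was 26 for Plagl1, 17 for Nnat and for the Mest window shown, 13 for Peg3 and 10 for Zrsr1, against a median of 7 over all windows. The letters AAGATGGC, a form of the YY1 site (2.75% of windows, both strands), and TATAAA (13.6%, both strands) were in none of the members' windows. A match is a description of the letters only.

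In the files' build, mm9, Peg10, a gene derived from a retrotransposon and needed in the placenta, lies on the plus strand of chromosome 6 at 4697306-4710516. Sgce, which encodes the membrane protein epsilon-sarcoglycan, runs the other way at 4624350-4697204, and the first bases of the 2 genes are 101 bases apart. Mest, an alpha/beta hydrolase family gene, lies further along chromosome 6 (30683506-30698466, plus strand) and overlaps Mir335 on its own strand and Copg2 on the other. Peg3 (chromosome 7, 6658671-6683130, minus strand), a zinc finger protein, overlaps Peg3os on the opposite strand. Plagl1 (chromosome 10, 12810638-12851501, plus strand), a zinc finger transcription factor that restrains growth, overlaps the noncoding gene Hymai on the same strand, so reads shared by both could not be assigned by strand. Zrsr1 (chromosome 11, 22872005-22876496, plus strand), a splicing-factor gene that arose as a retroposed copy of Zrsr2, lies inside Commd1 on the opposite strand, and Nnat (chromosome 2, 157385814-157388261, plus strand), the small membrane protein neuronatin, lies inside Blcap on the opposite strand. Impact (chromosome 18, 13130432-13151459, plus strand) encodes an inhibitor of the kinase GCN2. Counting used strand, and Zrsr1 values are less certain because of its near copy.

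Libraries held 17221431 to 58186717 counts, of which 8.06% to 24.9% fell on the ribosomal RNA gene Rn45s. Kdm1a was at 0.346 to 7.88 CPM in the 28 libraries of LSD1 KO cells without a transgene, against 158 to 235 CPM in the 24 WT libraries, and Rcor1 was at 4.86 to 18.5 CPM in RCOR1 KO and 2.14 to 6.41 CPM in RCOR1/2 DKO, against 38.6 to 85.3 CPM in WT. Rcor2 was at 0.75 to 4.89 CPM in RCOR2 KO ESCs but at 41.1 and 48.3 CPM in the libraries labelled RCOR2 KO EBs, against 116 to 142 CPM in WT EBs. Kmt2d was at 217 and 226 CPM in MLL4 KO and 154 to 218 CPM in MLL4/LSD1 DKO, below the 307 to 837 CPM of every WT library, whereas MLL4KO/LSD1CI at 207 to 400 CPM overlapped with WT. The pluripotency markers summed to 2820 to 4750 CPM in the untreated naive ESC groups. All LSD1 KO and 3 of the 11 WT libraries of untreated naive ESCs had no count on unplaced contigs, unlike every other library, a difference in how they were aligned or counted that is called the alignment below. By their whole profiles the WT ESC libraries fell into 4 subsets (1 to 3; 4, 5, 8 and 9; 6 and 7; 10 and 11), and each mutant was closest to 1 of them; the MLL4 lines were closest to WT 10 and 11.

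Per kilobase of exon, Peg10 (292 ± 101 CPM per kb, SD, n = 7) and Peg3 (253 ± 47.5) had the highest levels of the 8 in WT EBs and did not differ beyond their spread. Mest (132 ± 49.7), Nnat (47.8 ± 18.6), Impact (30.4 ± 3.52), Sgce (20.8 ± 2.83), Plagl1 (5.52 ± 2.93) and Zrsr1 (2.50 ± 0.447) followed, where Nnat and Impact were within their spread, as were Plagl1 and Zrsr1. In WT naive ESCs the order was another: Impact (27.8 ± 8.43 CPM per kb, SD, n = 11) and Mest (27.7 ± 12.4) led, within their spread. Peg3 (11.4 ± 4.76) and Plagl1 (10.4 ± 3.99) came next, also within their spread, and then Peg10 (4.81 ± 2.16), Zrsr1 (3.43 ± 0.983) and Nnat (3.33 ± 2.88), which did not differ beyond theirs. The spreads of Mest and Peg3 also overlapped, as did those of Plagl1 and Peg10, so these steps are not clear. Sgce had the lowest mean at 0.562 ± 0.262 CPM per kb, within the spread of Nnat.

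Over all cultures of a genotype together, no member was under 1 CPM in every library. By single groups, Nnat was under 1 CPM in all untreated LSD1 KO ESCs (0.141 to 0.528 CPM), in both LSD1 KO ESC libraries with DMSO (0.307 and 0.648 CPM) and in all 4 LSD1Res libraries with DOX (0.694 to 0.939 CPM). Peg10, Mest, Peg3, Zrsr1 and Impact were at 5 CPM or more in every library, and Plagl1 in 109 libraries. Sgce was under 1 CPM in 12 libraries and Nnat in 22, and both reached high levels elsewhere, up to 87.3 CPM for Sgce and 136 CPM for Nnat. Only 1 group held libraries of the same gene both under 1 CPM and at 5 CPM or more: Nnat in WT ESCs, with 2 of the 11 libraries under 1 CPM and 4 at 5 CPM or more. Libraries of the same group also differed more in these genes than in most. The within-group SD of log2 CPM was 0.722 for Nnat, 0.599 for Peg10, 0.547 for Mest, 0.537 for Sgce and 0.53 for Plagl1, which put them between the 94.6th and 98.0th percentiles of 17603 genes. Peg3 was at 0.421 (87.1st percentile), whereas Impact (0.261) and Zrsr1 (0.275) were close to the median gene at 0.252.

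**Figure D1:**
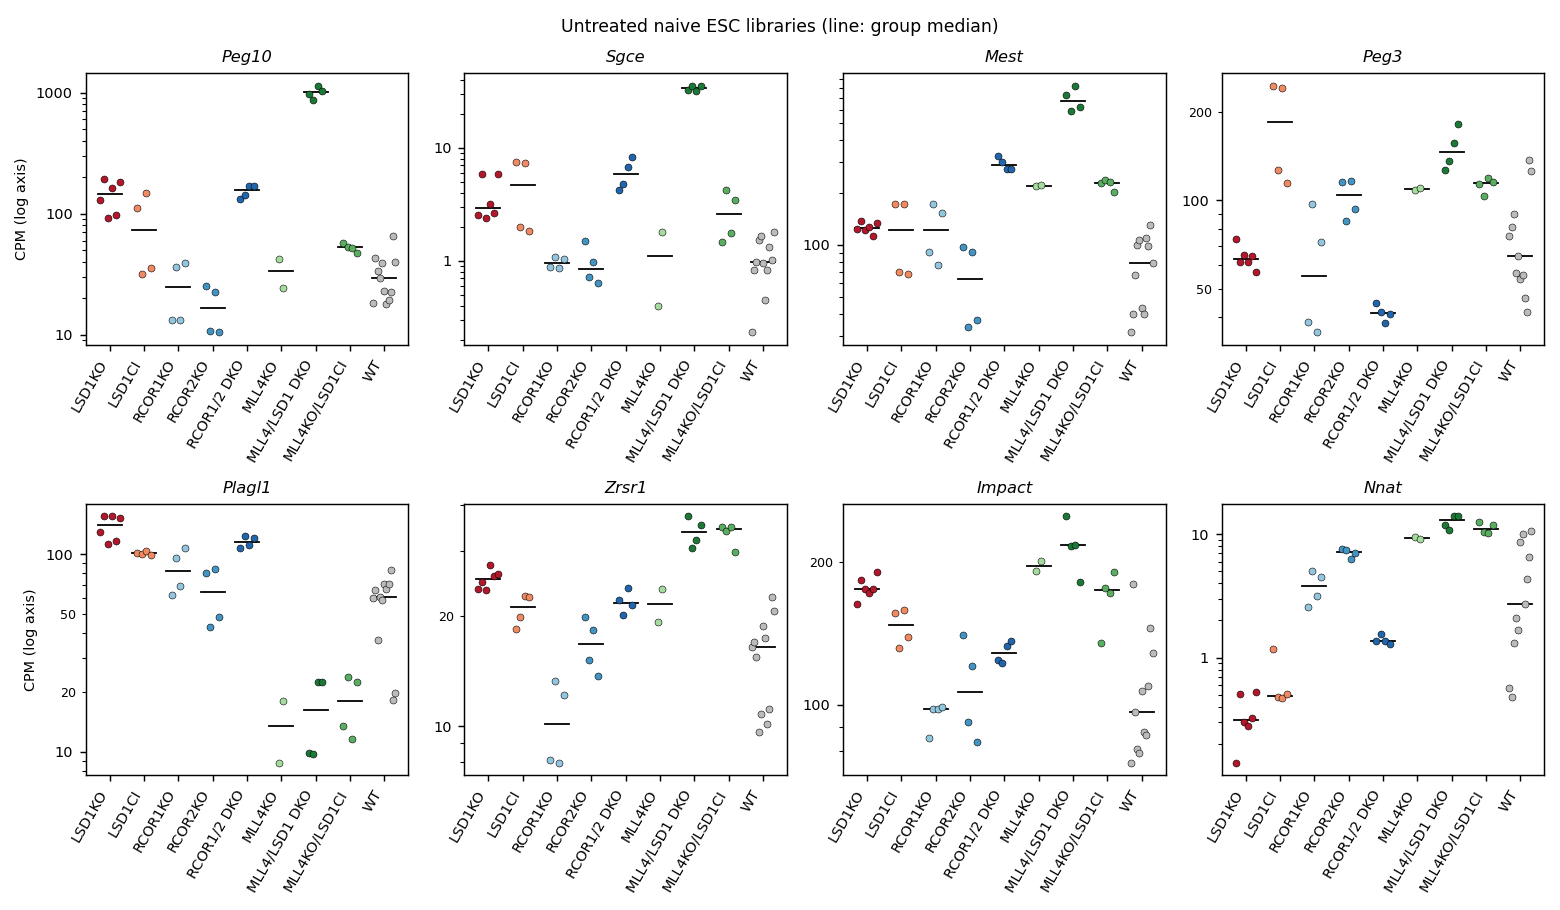
Level of each of the 8 genes in untreated naive ESCs, in CPM on a log axis, by genotype. Each dot is 1 library and each line is the group's median. Peg10 and Sgce stand highest in the MLL4/LSD1 DKO libraries (861 to 1141 CPM and 32.2 to 35.7 CPM), and Nnat is lowest in LSD1 KO (0.141 to 0.528 CPM).

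Comparing LSD1 KO with WT naive ESCs asks which of these genes change when the demethylase is lost. Peg10, Sgce and Plagl1 rose, Nnat fell, and the other 4 genes did not pass the thresholds. Peg10 was at 92.9, 147 and 194 CPM (lowest, median and highest of 6) in LSD1 KO, against 18.1, 29.4 and 65.5 CPM (of 11) in WT. Every LSD1 KO library was above every WT library, with a log2 fold change of 2.13 ± 0.29 (SE; adjusted p = 1.1e-07, edgeR quasi-likelihood test). Its divergent neighbour Sgce was at 2.38, 2.92 and 5.88 CPM in LSD1 KO, against 0.231, 0.966 and 1.81 CPM in WT, again without overlap (1.80 ± 0.32, adjusted p = 7.34e-06, edgeR). Plagl1 was at 113, 140 and 156 CPM in LSD1 KO, against 18.2, 60.7 and 83.6 CPM in WT (1.26 ± 0.24, adjusted p = 2.39e-05, edgeR), without overlap. A gene was called where the Benjamini-Hochberg adjusted p was under 0.01 and the log2 fold change beyond 1 in either direction, the study's thresholds, and all 8 genes passed the filter on low counts in every fit. All ESC comparisons with WT share the 11 WT libraries. By that rule 4 of the 8 were called, where 21.0% of all genes tested were, and the median log2 fold change of the 8 was 0.68, against -0.08 over all genes.

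Nnat was at 0.141, 0.315 and 0.528 CPM in LSD1 KO, against 0.484, 2.73 and 10.7 CPM in WT. The groups overlapped only through the WT library at 0.484 CPM, and the next lowest WT library was at 0.566 CPM. The log2 fold change was -3.71 ± 0.52 (adjusted p = 1.24e-07, edgeR). Against only the 3 WT libraries of the same alignment it was -1.26 (adjusted p = 0.0191, edgeR) and was no longer called. Mest, at a median of 125 and a maximum of 137 CPM in LSD1 KO, against 31.4, 79.1 and 130 CPM in WT, overlapped and was not called (0.67 ± 0.26, adjusted p = 0.0262, edgeR). With a term for the alignment it was (1.41, adjusted p = 0.00208, edgeR). Zrsr1 (0.68 ± 0.13) and Impact (0.69 ± 0.13) stayed under the fold threshold with adjusted p of 3.19e-05 and 1.06e-05 (edgeR), and the Zrsr1 groups did not overlap. Peg3, at 57.0 to 73.7 CPM in LSD1 KO and 41.7 to 137 CPM in WT, gave -0.27 ± 0.21. Beside these values, the summed fibroblast markers were at 16.6 to 25.9 CPM in LSD1 KO and 2.01 to 5.20 CPM in WT, with 6 of the 8 under 1 CPM in every library of both, Col1a2, Col3a1 and Dcn among them. The 6 endoderm markers summed to 25.4 to 45.8 CPM in LSD1 KO and 13.1 to 24.9 CPM in WT. The 5 mesoderm markers summed to 11.2 to 15.8 CPM in LSD1 KO, with all but Hand1 under 1 CPM, and to 0.443 to 2.13 CPM in WT. The 4 ectoderm markers (40.4 to 66.9 CPM in LSD1 KO, 31.7 to 78.4 CPM in WT) lay within the WT range. So did the 5 trophoblast markers, at 13.8 to 25.1 CPM in LSD1 KO and 4.62 to 25.8 CPM in WT. The part of these markers in the result was not tested.

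LSD1 CI cells keep the protein but not its catalysis. Against the same WT libraries, Peg10, Sgce and Peg3 rose and Nnat fell, 4 of 8 where 3.24% of all genes tested were called. Peg10 was at 111, 31.9, 148 and 35.9 CPM in LSD1 CI, so that libraries 1 and 3 were above all WT libraries and libraries 2 and 4 lay within the WT range (18.1 to 65.5 CPM). The log2 fold change of Peg10 was 1.35 ± 0.33 (adjusted p = 0.00444, edgeR). It was not called without library 1 (1.17, adjusted p = 0.0328) or library 3 (0.89, adjusted p = 0.0882). Sgce followed the same libraries at 7.44, 2.00, 7.30 and 1.85 CPM in LSD1 CI, against 0.231 to 1.81 CPM in WT, with no overlap (2.15 ± 0.35, adjusted p = 3.21e-05, edgeR). Peg3 was at 246, 126, 242 and 115 CPM in LSD1 CI, against 41.7 to 137 CPM in WT (1.27 ± 0.23, adjusted p = 0.000185, edgeR). Nnat was at 1.18, 0.479, 0.473 and 0.504 CPM in LSD1 CI, in the lower part of the WT range of 0.484 to 10.7 CPM or just below it (-2.74 ± 0.58, adjusted p = 0.00103, edgeR). With only LSD1 CI and WT libraries in the fit, 3 of the 4 calls were lost, those of Peg10 (adjusted p = 0.0518), Nnat (adjusted p = 0.0636) and Peg3 (adjusted p = 0.0165). Against the 4 closest WT libraries Peg10 was also not called (1.55, adjusted p = 0.0105).

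Mest was at 172, 69.8, 173 and 67.8 CPM in LSD1 CI (0.65 ± 0.30, adjusted p = 0.129, edgeR), and Plagl1 gave 0.85 ± 0.27 (adjusted p = 0.0282, edgeR) without overlap between groups. Setting LSD1 KO against LSD1 CI directly, only Peg3 was called, at 57.0 to 73.7 CPM in LSD1 KO, against 115 to 246 CPM in LSD1 CI. It was lower in every LSD1 KO library (-1.54 ± 0.27, adjusted p = 8.95e-06, edgeR). Of all genes tested, 16.0% were called in this comparison, and the Peg10 difference was 0.78 ± 0.39 (adjusted p = 0.0948, edgeR). All LSD1 KO libraries lacked counts on unplaced contigs and no LSD1 CI library did. Genotype and alignment therefore cannot be told apart between these groups. They were also closest to different WT subsets (1 to 3 for LSD1 KO, and 4, 5, 8 and 9 for LSD1 CI).

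Loss of RCOR1 or RCOR2 alone changed none of the 8 genes past the thresholds in naive ESCs, where 0.142% and 3.85% of all genes tested were called. At an unadjusted p under 0.05, 3 of the 8 differed in RCOR1 KO and 1 in RCOR2 KO by edgeR, and DESeq2 called none. Peg10 was at 13.3, 36.4, 13.2 and 38.9 CPM in RCOR1 KO and at 25.1, 10.9, 22.7 and 10.5 CPM in RCOR2 KO, against 18.1 to 65.5 CPM in WT. The medians of the 8 log2 fold changes were -0.18 in RCOR1 KO and 0.05 in RCOR2 KO. In RCOR1/2 DKO cells, by contrast, Peg10, Sgce, Mest and Plagl1 rose and Nnat fell, 5 of 8 where 17.7% of all genes tested were called. Peg10 was at 133, 144, 171 and 168 CPM in RCOR1/2 DKO (2.24 ± 0.32, adjusted p = 4.32e-07, edgeR), above every WT library. Sgce was at 4.21, 4.81, 6.81 and 8.25 CPM (2.49 ± 0.35, adjusted p = 1.48e-07, edgeR) and Mest at 325, 302, 274 and 272 CPM (1.90 ± 0.29, adjusted p = 1.16e-06, edgeR), both also above all WT libraries.

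Plagl1 was at 108, 124, 111 and 120 CPM in RCOR1/2 DKO, against a WT maximum of 83.6 CPM (1.02 ± 0.27, adjusted p = 0.00194, edgeR). This value lay at the fold threshold, and against the 4 closest WT libraries it was 0.72 (adjusted p = 0.0201), and without RCOR1/2 DKO library 2 or 4 it was 0.98 or 1.00. Nnat was at 1.35, 1.54, 1.36 and 1.29 CPM in RCOR1/2 DKO, inside the WT range of 0.484 to 10.7 CPM (-1.69 ± 0.52, adjusted p = 0.00725, edgeR), and its call was lost without any 1 of the RCOR1/2 DKO libraries (adjusted p 0.0177 to 0.0255) and against the 4 closest WT libraries, where it lay at the fold threshold (-1.0). Peg3 gave -0.89 ± 0.26 (adjusted p = 0.00434, edgeR), under the fold threshold. Set against RCOR2 KO rather than WT, RCOR1/2 DKO cells had higher Peg10 (3.15 ± 0.45, adjusted p = 1.18e-06, edgeR), Sgce (2.63 ± 0.48, adjusted p = 2.92e-05) and Mest (2.18 ± 0.39, adjusted p = 3.19e-05). Peg3 (-1.32 ± 0.30, adjusted p = 0.000642) and Nnat (-2.35 ± 0.60, adjusted p = 0.0017) were lower. None of these 5 overlapped between the groups, and 14.9% of all genes tested were called. Markers of other cell types stood beside these values. The 8 fibroblast markers summed to 32.5 to 41.1 CPM in RCOR1/2 DKO and 2.01 to 5.20 CPM in WT, with Col1a2, Col3a1 and Dcn under 1 CPM in every library of both. The 6 endoderm markers summed to 82.6 to 93.5 CPM in RCOR1/2 DKO and 13.1 to 24.9 CPM in WT. The 5 trophoblast markers, Elf5 and Cdx2 under 1 CPM throughout, summed to 27.8 to 32.5 CPM in RCOR1/2 DKO and 27.9 to 29.7 CPM in RCOR1 KO, where Peg10 was not called, against 4.62 to 25.8 CPM in WT. The part of these markers in the results was not tested.

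The MLL4 lines ask what happens to the same genes when the methyltransferase is also lost. In MLL4 KO ESCs, Peg10 (42.2 and 24.6 CPM) and Sgce (0.396 and 1.80 CPM) lay within the WT range, with log2 fold changes of 0.06 ± 0.46 and 0.07 ± 0.55. Mest was at 217 and 222 CPM in MLL4 KO, above the WT maximum of 130 CPM (1.5 ± 0.36, adjusted p = 0.00183, edgeR), and Plagl1 was at 8.82 and 18.1 CPM, below the WT minimum of 18.2 CPM (-2.06 ± 0.45, adjusted p = 0.000611, edgeR). These were the 2 members called, where 10.7% of all genes tested were. Neither call held against the closest WT libraries, 10 and 11, where Mest gave 1.06 (adjusted p = 0.0943) and Plagl1 -0.51 (adjusted p = 0.453). Without either MLL4 KO library the Mest call was also lost (adjusted p 0.0313 and 0.0317), as was that of Plagl1 without library 1 (-1.62, adjusted p = 0.0635). The 2 closest WT libraries had Plagl1 at 18.2 and 19.8 CPM, the lowest of the 11.

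In MLL4/LSD1 DKO ESCs, Peg10 was at 972, 861, 1141 and 1031 CPM, against 18.1 to 65.5 CPM in WT. Sgce was at 32.4, 35.6, 32.2 and 35.7 CPM in MLL4/LSD1 DKO, against 0.231 to 1.81 CPM in WT. Mest was at 725, 588, 825 and 619 CPM in MLL4/LSD1 DKO, against 31.4 to 130 CPM in WT. No library of either group overlapped with the other in any of the 3 genes, and the log2 fold changes were 4.95 ± 0.33 for Peg10 (adjusted p = 1.8e-14, edgeR), 5.0 ± 0.35 for Sgce (adjusted p = 1.08e-14) and 3.15 ± 0.28 for Mest (adjusted p = 4.37e-11). Zrsr1, at 30.5 to 37.4 CPM in MLL4/LSD1 DKO and 9.65 to 22.4 CPM in WT, rose by 1.12 ± 0.15 on the log2 scale (adjusted p = 8.25e-08, edgeR). Nnat, at 11.8, 10.9, 14.0 and 14.1 CPM in MLL4/LSD1 DKO, was above the WT maximum of 10.7 CPM (1.52 ± 0.44, adjusted p = 0.00517, edgeR). Plagl1, at 9.89, 9.80, 22.6 and 22.6 CPM, was lower with overlap (-1.81 ± 0.32, adjusted p = 2.69e-05, edgeR). In all, 6 of 8 were called, where 14.2% of all genes tested were. Against WT 10 and 11 alone, Zrsr1 (0.64), Nnat (0.55) and Plagl1 (-0.26) were not called, and Nnat was also not called without MLL4/LSD1 DKO library 1, 3 or 4 (adjusted p 0.0116 to 0.0173).

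The level of Peg10 and Sgce in MLL4/LSD1 DKO cells also exceeded that in the other MLL4-deleted lines. Against MLL4 KO the log2 fold change was 4.90 ± 0.67 for Peg10 (adjusted p = 9.63e-07, edgeR) and 4.93 ± 0.72 for Sgce (adjusted p = 1.75e-06), the 2 members called, with 7.90% of all genes. Mest, at 588 to 825 CPM in MLL4/LSD1 DKO and 217 and 222 CPM in MLL4 KO, did not overlap but missed the adjusted p (1.64 ± 0.49, adjusted p = 0.0144, edgeR). It was called by DESeq2 (adjusted p = 0.00145), with only these groups in the fit (adjusted p = 2.33e-05) and with the alignment term (adjusted p = 0.00707). MLL4KO/LSD1CI cells, which lack MLL4 and carry the inactive LSD1, had Peg10 at 57.5, 53.5, 52.2 and 47.1 CPM and Sgce at 1.48, 4.22, 1.75 and 3.46 CPM. Against them MLL4/LSD1 DKO cells were higher in Peg10 (4.25 ± 0.47, adjusted p = 1.34e-08, edgeR), Sgce (3.63 ± 0.49, adjusted p = 2.72e-07) and Mest (1.62 ± 0.38, adjusted p = 0.00146), with 8.17% of all genes called. MLL4KO/LSD1CI against WT gave 0.71 ± 0.34 for Peg10 (adjusted p = 0.0955, edgeR), and 4 of the 8 were called where 14.1% of all genes were: Sgce (1.38 ± 0.37, adjusted p = 0.00313), Mest (1.53 ± 0.29, adjusted p = 6.32e-05), Zrsr1 (1.11 ± 0.15, adjusted p = 1.02e-07) and Plagl1 (-1.65 ± 0.32, adjusted p = 8.44e-05). The Sgce call was lost without library 2 (1.09, adjusted p = 0.0415) or 4 (1.24, adjusted p = 0.0195), and none of the 4 held against WT 10 and 11. Set against MLL4 KO, MLL4KO/LSD1CI cells had no member called by edgeR or DESeq2 (2 at an unadjusted p under 0.05), and 0.125% of all genes tested were.

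The estimated effect of losing LSD1 on Peg10 and Sgce was larger in MLL4-deleted cells than in cells with MLL4. The groups also differed in alignment and in their closest WT libraries. Levels in LSD1 KO ESCs with MLL4 varied between sets of libraries. Peg10 was at 92.9 to 194 CPM untreated, 124 to 125 CPM with DMSO and 438 to 480 CPM in the set without DOX. Sgce was at 2.38 to 5.88, 8.39 to 10.7 and 11.9 to 24.3 CPM in the same order. The difference between the 2 effects, a test added after these values were seen, was 2.77 ± 0.65 on the log2 scale for Peg10 (adjusted p = 0.00114, edgeR) and 3.13 ± 0.72 for Sgce (adjusted p = 0.00083), and 13.1% of all genes tested were called. For Nnat it was 4.14 ± 0.93 (adjusted p = 0.000695). With a term for the alignment the Peg10 difference was 2.76 (adjusted p = 0.00374), whereas those of Sgce (2.53, adjusted p = 0.0114) and Nnat (1.69, adjusted p = 0.0522) were not called, and with alike libraries summed, as described with the library pairs, Nnat was not (4.13, adjusted p = 0.0121). Beside these values, the pluripotency markers summed to 2820 to 3370 CPM in MLL4/LSD1 DKO and 3900 to 4170 CPM in MLL4 KO. The 5 trophoblast markers summed to 7.8 to 12.7 CPM in MLL4/LSD1 DKO and 2.48 to 3.37 CPM in MLL4 KO, against 4.62 to 25.8 CPM in WT. The part of both marker lists was not tested.

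Genes that lie beside the members were taken from a fixed list of 18 neighbours in the same imprinted clusters, of which 14 were tested in ESCs. The shares of all genes called, against which the counts of each list stand, were 21.0% in LSD1 KO, 3.24% in LSD1 CI, 17.7% in RCOR1/2 DKO and 14.2% in MLL4/LSD1 DKO. In MLL4/LSD1 DKO against WT, 9 neighbours rose and none fell (median log2 fold change 1.53), among them Pon3 (2.58) and Pon2 (1.75), paraoxonase genes near Peg10, Copg2 (1.88), a coat protein gene that overlaps Mest, and Usp29 (1.95), a ubiquitin protease gene beside Peg3. LSD1 KO had 3 up and none down (median 0.01), which were Usp29 (2.20), Pon3 (1.58) and Zim1 (1.65), and RCOR1/2 DKO also had 3 up and none down, the same genes by name (median 0.38; Usp29 1.39, Pon3 1.64, Zim1 1.71). Both counts are near the share of all genes called. LSD1 CI had 1 up, Usp29 (1.32), and neither RCOR1 KO nor RCOR2 KO had any. Of 22 other paternally expressed genes, 20 were tested: LSD1 KO had 6 up and 1 down, RCOR1/2 DKO 9 up and none down, LSD1 CI 3 up and 1 down, and MLL4/LSD1 DKO 8 up and 1 down. The leading genes were Sfmbt2, a Polycomb-group gene (2.00 in LSD1 KO, 2.31 in RCOR1/2 DKO and 3.44 in MLL4/LSD1 DKO), Ndn, the growth suppressor necdin (1.21, 2.54 and 1.57 in the same order), and Slc38a4, an amino acid transporter gene (3.41, 3.90 and 3.28). Ndn was also called higher than WT in RCOR2 KO, MLL4 KO and MLL4KO/LSD1CI. In MLL4/LSD1 DKO it was called lower than in MLL4 KO and in MLL4KO/LSD1CI. Of 23 maternally expressed genes, 21 were tested, with 1 up and 5 down in LSD1 KO, none in LSD1 CI, 1 up and 2 down in RCOR1/2 DKO, and 5 up and 1 down in MLL4/LSD1 DKO. Among 13 genes that set, keep or remove the methylation mark, Dnmt3l, a cofactor of the de novo methyltransferases, was higher in LSD1 KO (1.64) and RCOR1/2 DKO (1.89), and Dppa3, which protects the maternal genome from demethylation after fertilization, in LSD1 KO (1.20) and MLL4/LSD1 DKO (1.71). Dppa3 was also called higher in RCOR2 KO, where no member was called. Some genes of these lists are imprinted in some tissues only, and the lists share Usp29 and 5 neighbours that are maternally expressed.

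Each naive ESC group of 4 was divided into the 2 pairs of libraries most alike over all genes outside the lists, and in several groups the members differed between the pairs more than most genes did. In LSD1 CI, libraries 1 and 3 exceeded libraries 2 and 4 by 3.74-fold in Peg10, 3.24-fold in Sgce, 2.50-fold in Mest and 2.02-fold in Peg3. Of 17495 genes outside the lists, 0.252% differed as far between these pairs as Peg10 and 0.4% as far as Sgce, whereas Plagl1 differed by 1.03-fold. In RCOR2 KO, libraries 1 and 3 exceeded libraries 2 and 4 by 2.66-fold in Mest (0.383% of genes as far) and 2.18-fold in Peg10 (1.07%). In RCOR1 KO, libraries 1 and 3 were below libraries 2 and 4 by 2.77-fold in Peg10 (0.234%), 2.25-fold in Peg3 (0.406%) and 1.93-fold in Mest (0.8%). No pair had a member off where the other had it on.

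In LSD1Res cells without DOX, libraries 1 and 2 were above libraries 3 and 4 by 3.27-fold in Peg3 (168 and 171 CPM, and 57.8 and 45.9 CPM) and below them by 2.69-fold in Sgce and 1.98-fold in Peg10. With DOX libraries 1 and 2 were again above in Peg3 (2.91-fold) and below in Sgce (1.61-fold), but in Peg10 they were now above libraries 3 and 4, by 1.64-fold. DKO+LSD1 libraries 1 and 2 with DOX were below libraries 3 and 4 by 2.67-fold in Peg10 and 2.7-fold in Peg3. In MLL4/LSD1 DKO, Plagl1 separated libraries 1 and 2 (9.89 and 9.80 CPM) from 3 and 4 (both 22.6 CPM), which were not the pairs of the whole profile. Whether any pair is a clone is not given in the labels.

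Since alike libraries may be repeats, the counts of the most alike libraries were also summed within groups of 4. This left 2 samples in each such group and 24 of the 36 calls in naive ESCs. The 11 WT and 6 LSD1 KO ESC libraries and the 7 WT EB libraries were not summed, so repeats among them were not covered. Yet WT ESC libraries 4 and 5, 6 and 7, 8 and 9, and 10 and 11 were the most alike (correlation of deviations 0.794 to 0.823). The 12 calls that ended kept their direction. Against WT they were Peg10 (adjusted p = 0.0878), Peg3 (adjusted p = 0.0185) and Nnat (adjusted p = 0.118) in LSD1 CI, Plagl1 (adjusted p = 0.0309) and Nnat (adjusted p = 0.128) in RCOR1/2 DKO, Nnat (adjusted p = 0.0993) in MLL4/LSD1 DKO, and Sgce (adjusted p = 0.0412) in MLL4KO/LSD1CI. Between mutants they were Mest (adjusted p = 0.0124), Sgce (adjusted p = 0.0137), Peg3 (adjusted p = 0.0439) and Nnat (adjusted p = 0.102) in RCOR1/2 DKO against RCOR2 KO, and Mest (adjusted p = 0.083) in MLL4/LSD1 DKO against MLL4KO/LSD1CI. In EBs the summed libraries ended 3 of the 12 calls: Peg10 in LSD1 CI against WT (1.5, adjusted p = 0.0253), and Peg10 (adjusted p = 0.0191) and Mest (adjusted p = 0.0371) in LSD1 KO against LSD1 CI.

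**Figure D2:**
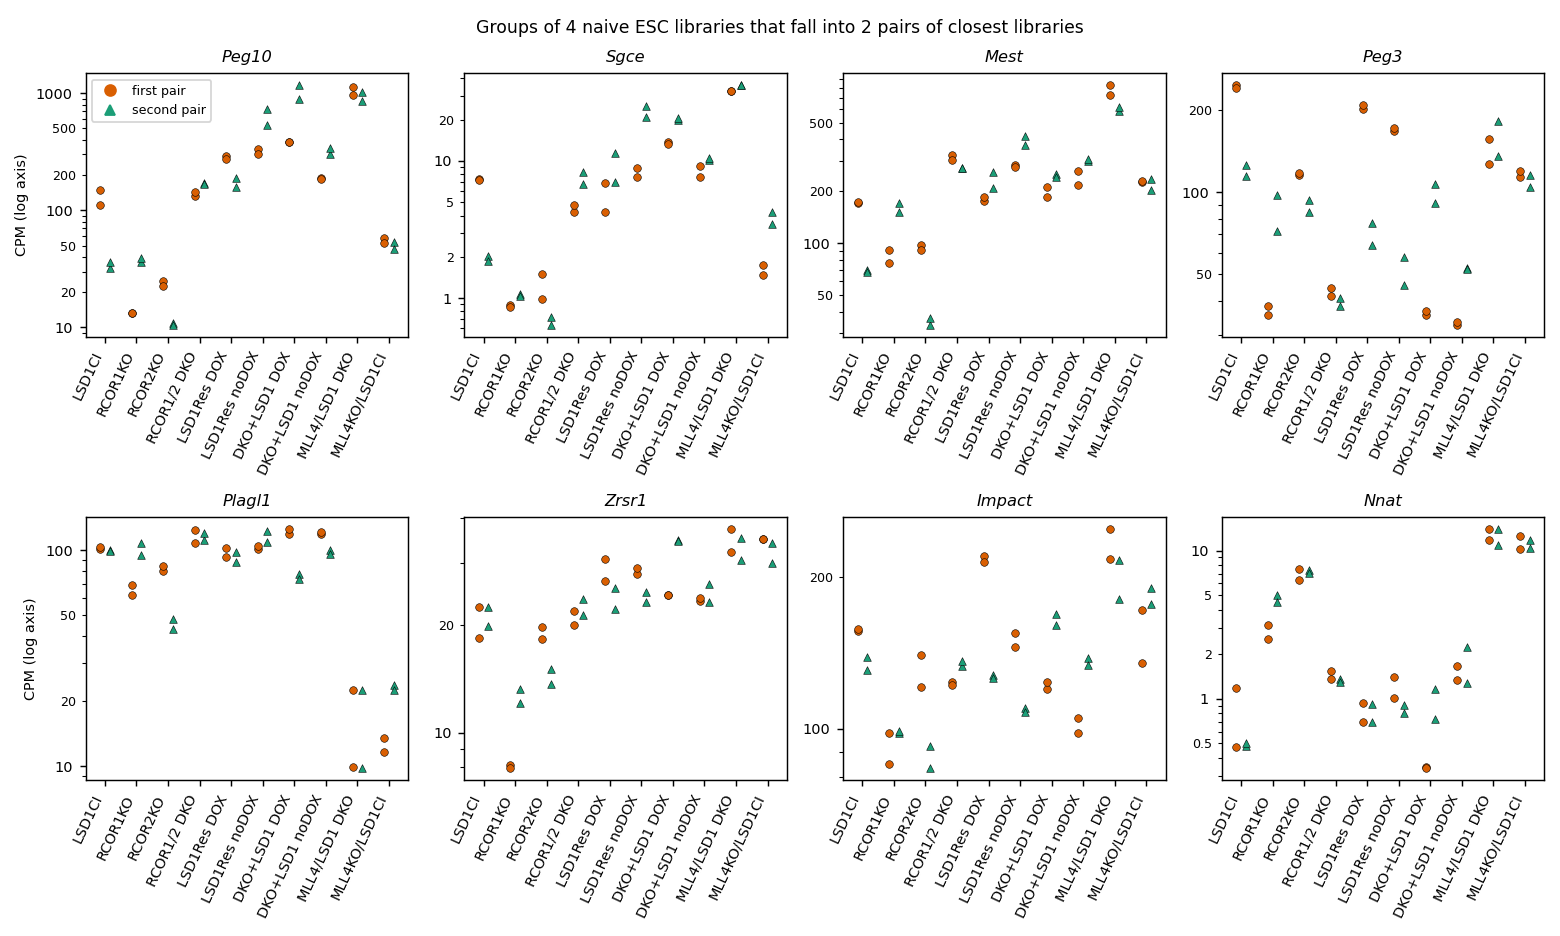
Level of each gene in the 10 naive ESC groups of 4 libraries, in CPM on a log axis, with the 2 pairs of most alike libraries as circles and triangles. Peg10 in LSD1 CI separates into 111 and 148 CPM against 31.9 and 35.9 CPM, and Peg3 in LSD1Res into 168 and 171 CPM against 57.8 and 45.9 CPM.

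The same genes were then compared in EBs. An EB is a mixture, and in bulk samples fewer cells of a type and less RNA per cell cannot be told apart. In LSD1 KO EBs, Plagl1 and Impact rose, 2 of 8 where 13.7% of all genes tested were called. Impact was at 350 and 425 CPM in LSD1 KO EBs, against 91.8, 118 and 133 CPM (lowest, median and highest of 7) in WT EBs. Plagl1 was at 81.7 and 123 CPM in LSD1 KO EBs, against 12.2, 24.4 and 52.6 CPM in WT EBs. Neither overlapped with WT, and the log2 fold changes were 1.74 ± 0.12 for Impact (adjusted p = 3.61e-09, edgeR) and 1.80 ± 0.48 for Plagl1 (adjusted p = 0.00634). The Plagl1 call was lost without library 1 (2.08, adjusted p = 0.0182) or library 2 (log2 fold change 1.48) of LSD1 KO. Peg10, at 1789 and 1528 CPM in LSD1 KO EBs, lay within the WT range of 720 to 2579 CPM (-0.22, adjusted p = 0.657, edgeR), and Peg3, at 906 and 1116 CPM, was below the WT minimum of 1244 CPM but under the fold threshold (-0.73 ± 0.19, adjusted p = 0.0043).

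In LSD1 CI EBs, Mest, Peg10, Sgce and Impact rose, 4 of 8 where 2.54% of all genes tested were called. Mest was at 2225, 1572, 1619 and 1273 CPM in LSD1 CI EBs, against 169, 342 and 527 CPM in WT EBs (2.20 ± 0.22, adjusted p = 1.65e-06, edgeR). Peg10 was at 3525, 4798, 7942 and 5505 CPM in LSD1 CI EBs, against 720, 2097 and 2579 CPM in WT EBs (1.5 ± 0.26, adjusted p = 0.000697, edgeR). Neither gene overlapped between the groups, nor did Sgce at 75.6 to 80.6 CPM in LSD1 CI EBs, against 30.6 to 45.6 CPM in WT EBs (1.01 ± 0.16, adjusted p = 0.000197, edgeR), or Impact at 216 to 307 CPM, against 91.8 to 133 CPM (1.28 ± 0.10, adjusted p = 4.68e-08). Sgce was just under the fold threshold without library 2 (0.99), and Peg10 missed the adjusted p when only LSD1 CI and WT EBs entered the fit (1.49, adjusted p = 0.0117). Peg3, at 2580 to 3713 CPM in LSD1 CI EBs and 1244 to 2223 CPM in WT EBs, stayed under it (0.92 ± 0.14, adjusted p = 0.00012, edgeR). Directly against LSD1 CI EBs, LSD1 KO EBs were lower in Peg10 (-1.72 ± 0.40, adjusted p = 0.00296, edgeR), Mest (-1.32 ± 0.33, adjusted p = 0.00546) and Peg3 (-1.65 ± 0.21, adjusted p = 9.87e-06), with 11.4% of all genes called. Those of Peg10 (adjusted p 0.0266 and 0.0493) and Mest (adjusted p 0.0891 and 0.0183) were lost without LSD1 KO library 1 or 2, and that of Mest without LSD1 CI library 1 (adjusted p = 0.013).

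Among the RCOR lines, Peg3 fell in RCOR1/2 DKO EBs and in the EBs labelled RCOR2 KO, which still had Rcor2 at 41.1 and 48.3 CPM, and not in RCOR1 KO EBs. It was at 428, 312, 393 and 406 CPM in RCOR1/2 DKO EBs and at 327 and 432 CPM in the libraries labelled RCOR2 KO EBs, against 1244, 1634 and 2223 CPM in WT EBs. All of these libraries were far below every WT EB, and the log2 fold changes were -2.08 ± 0.15 (adjusted p = 3.96e-10, edgeR) in RCOR1/2 DKO and -2.15 ± 0.21 (adjusted p = 1.01e-06) in the libraries labelled RCOR2 KO. Peg3 was the only member called in EBs labelled RCOR2 KO (5.28% of all genes), while Peg10 (-1.46 ± 0.38, adjusted p = 0.0116) and Plagl1 (-2.15 ± 0.63, adjusted p = 0.0244) missed the adjusted p. In RCOR1/2 DKO EBs Impact also rose, at 337, 323, 313 and 353 CPM, against 91.8 to 133 CPM in WT EBs (1.55 ± 0.10, adjusted p = 9.74e-11, edgeR), so that 2 of 8 were called where 26.4% of all genes were. RCOR1 KO EBs had Peg3 at 1483, 1293, 1759 and 1411 CPM, within the WT range, and no member called by edgeR or DESeq2 (1 at an unadjusted p under 0.05), where 0.00558% of all genes were.

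Cell type markers moved with these groups, and their part in the results was not tested. The 7 pluripotency markers summed to 538 to 615 CPM in LSD1 KO EBs, 54.2 to 144 CPM in LSD1 CI EBs, 54.2 to 151 CPM in RCOR1 KO, 234 to 312 CPM in RCOR2 KO and 1080 to 1190 CPM in RCOR1/2 DKO, against 39.6 to 194 CPM in WT EBs. The 4 ectoderm markers summed to 233 to 252 CPM in LSD1 KO EBs, 46.9 to 138 CPM in LSD1 CI, 34.9 to 79.6 CPM in RCOR1 KO, 248 to 260 CPM in RCOR2 KO and 141 to 168 CPM in RCOR1/2 DKO, against 26.7 to 159 CPM in WT EBs. They were thus above every WT library in LSD1 KO and RCOR2 KO EBs. The 6 endoderm markers summed to 100 to 118 CPM in LSD1 KO EBs, 334 to 484 CPM in LSD1 CI and 89.8 to 107 CPM in RCOR1/2 DKO, where Sox17, Gata6 and Foxa2 were under 1 CPM, against 329 to 626 CPM in WT EBs. The 5 mesoderm markers were at 6.53 to 35.9 CPM in RCOR2 KO and 4.70 to 7.22 CPM in RCOR1/2 DKO, against 96.5 to 615 CPM in WT EBs. Trophoblast markers, from cells in which Peg10 is known to be high, summed to 186 to 205 CPM in LSD1 KO, 87.4 to 198 CPM in LSD1 CI, 10.7 to 46.0 CPM in RCOR2 KO and 13.5 to 18.3 CPM in RCOR1/2 DKO, against 72.4 to 207 CPM in WT EBs.

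For the gene lists in EBs, the shares of all genes called were 13.7% in LSD1 KO, 2.54% in LSD1 CI, 5.28% in RCOR2 KO and 26.4% in RCOR1/2 DKO. Of 15 neighbours tested in EBs, none rose and 4 fell in LSD1 KO, none rose and 5 fell in RCOR2 KO, 1 rose and 5 fell in RCOR1/2 DKO, and none changed in LSD1 CI. The 21 other paternally expressed genes gave 3 up and 3 down in LSD1 KO, 3 up and none down in LSD1 CI, none up and 2 down in RCOR2 KO, and 4 up and 8 down in RCOR1/2 DKO, among them Igf2, the fetal growth factor, lower (-5.30 in LSD1 KO and -7.71 in RCOR1/2 DKO) and Sfmbt2 higher (3.18 and 3.68). Of the 23 maternally expressed genes, none rose and 8 fell in LSD1 KO, and 1 rose and 8 fell in RCOR1/2 DKO, led by Grb10, an inhibitor of growth factor signalling (-6.00 and -5.27). Among the 13 genes of the methylation mark, 5 rose in RCOR1/2 DKO EBs, among them Dnmt3a and Dnmt3l of the de novo machinery, the demethylating enzyme gene Tet1, and Zfp57.

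The difference between the effect in EBs and the effect in ESCs was tested within each genotype. For Peg10 it was -2.40 ± 0.58 in LSD1 KO (adjusted p = 0.000712, edgeR) and -3.26 ± 0.49 in RCOR1/2 DKO (adjusted p = 2.99e-07), and for Sgce -1.55 ± 0.48 (adjusted p = 0.00709) and -3.36 ± 0.43 (adjusted p = 5.48e-09) in the same genotypes. Both genes were thus higher than WT in mutant ESCs without a like rise in mutant EBs. In RCOR1/2 DKO EBs Sgce was at 20.2 to 25.9 CPM, below the 30.6 to 45.6 CPM of WT EBs. Peg10 was at 809 to 1110 CPM there, within the WT range, and neither gene was called in RCOR1/2 DKO EBs against WT. For Impact the difference was 1.00 ± 0.22 in LSD1 KO (adjusted p = 0.00022) and 1.24 ± 0.21 in RCOR1/2 DKO (adjusted p = 2.14e-06), and for Peg3 -2.59 ± 0.41 in the libraries labelled RCOR2 KO (adjusted p = 8.42e-06) and -1.26 ± 0.33 in RCOR1/2 DKO (adjusted p = 0.00129). With alike libraries summed, the Sgce difference in LSD1 KO (-1.52, adjusted p = 0.018) and the Peg3 difference in RCOR1/2 DKO (-1.20, adjusted p = 0.0374) were not called. RCOR1 KO had no member called by edgeR or DESeq2, and none at an unadjusted p under 0.05. The shares of all genes called were 0.00% in RCOR1 KO, 18.9% in LSD1 KO, 3.25% in LSD1 CI, 6.79% in RCOR2 KO and 20.5% in RCOR1/2 DKO.

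The second set of EBs, grown with DMSO, holds LSD1 KO and WT libraries other than those above. Impact was at 489 and 540 CPM in LSD1 KO, against 158 and 170 CPM in WT (1.66 ± 0.12, adjusted p = 7.27e-07, edgeR). Peg3 was at 786 and 827 CPM in LSD1 KO, against 1904 and 1659 CPM in WT (-1.14 ± 0.12, adjusted p = 1.95e-05, edgeR). Mest was at 938 and 1290 CPM in LSD1 KO, against 499 and 432 CPM in WT (1.26 ± 0.15, adjusted p = 5.09e-05, edgeR). None of the 3 overlapped, and with Zrsr1 (19 and 17 CPM in LSD1 KO, against 9.25 and 8.26 CPM in WT, 1.04 ± 0.16, adjusted p = 0.000271) 4 of 8 were called where 18.8% of all genes were, although Zrsr1 was at 0.96 without WT library 2 or LSD1 KO library 1. Peg10, at 1643 and 1732 CPM in LSD1 KO and 2068 and 1607 CPM in WT, gave -0.12 (adjusted p = 0.589, edgeR). Summed pluripotency markers were at 525 to 563 CPM in LSD1 KO and 84.0 to 101 CPM in WT, and their part was not tested.

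**Figure D3:**
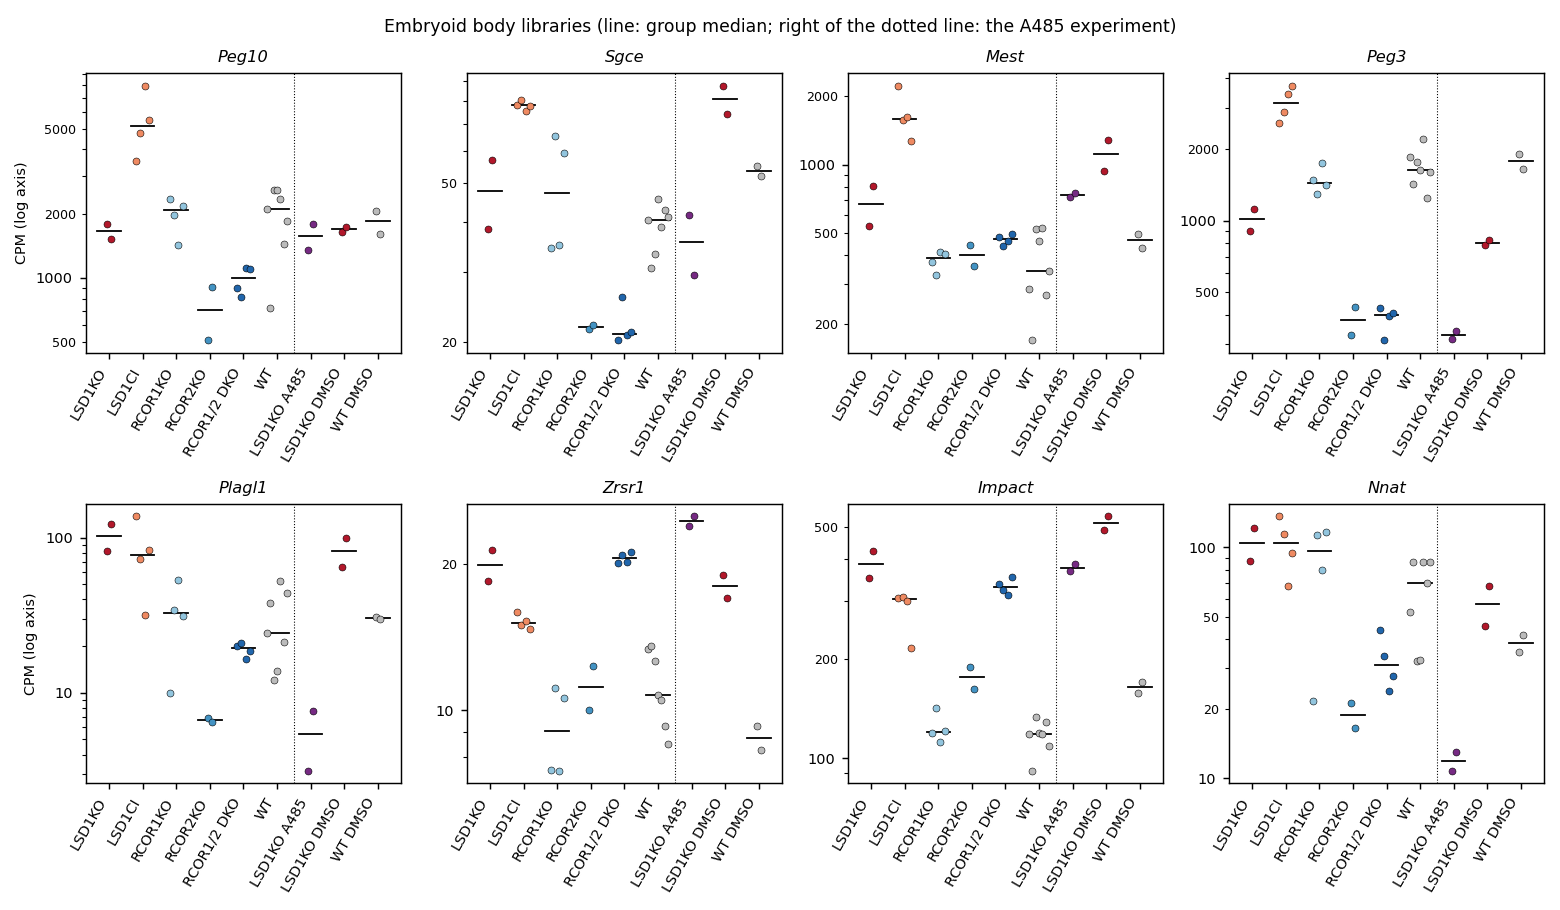
Level of each gene in EBs, in CPM on a log axis, by genotype; each dot is 1 library and each line the group's median, and the groups right of the dotted line belong to the A485 experiment. Peg3 is low in the libraries labelled RCOR2 KO and RCOR1/2 DKO (312 to 432 CPM) and in LSD1 KO with A485 (315 and 339 CPM), against 1244 to 2223 CPM in untreated WT, and the medians of Mest and Peg10 are highest in LSD1 CI.

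Cells grown in serum without 2i/LIF showed higher levels of most members when LSD1 was lost or inactive. Peg10 was at 3875 and 3459 CPM in LSD1 KO and 4696 and 7416 CPM in LSD1 CI, against 835 and 1076 CPM in WT. Peg3 was at 637 and 621 CPM in LSD1 KO and 591 and 756 CPM in LSD1 CI, against 125 and 171 CPM in WT. No library of either mutant overlapped with WT in these genes. The log2 fold changes in LSD1 KO were 1.94 ± 0.25 for Peg10 (adjusted p = 0.00382, edgeR), 2.09 ± 0.20 for Peg3 (adjusted p = 0.000727), 1.45 ± 0.09 for Mest (adjusted p = 2.52e-06), 1.52 ± 0.14 for Zrsr1 (adjusted p = 1.85e-05) and 1.11 ± 0.09 for Impact (adjusted p = 7.96e-06). In LSD1 CI the same 5 genes were called, with 2.66 ± 0.26 for Peg10 (adjusted p = 0.00335, edgeR), 2.18 ± 0.20 for Peg3 (adjusted p = 0.00154), 1.04 ± 0.09 for Mest (adjusted p = 4.65e-05), 1.09 ± 0.14 for Zrsr1 (adjusted p = 0.000467) and 1.18 ± 0.09 for Impact (adjusted p = 1.82e-05). Of all genes tested, 9.55% were called in LSD1 KO and 2.99% in LSD1 CI. Both comparisons share the WT libraries, and none of the 8 was called between LSD1 KO and LSD1 CI by edgeR or DESeq2 (2.48% of all genes; 5 of the 8 at an unadjusted p under 0.05). Without any 1 of the 4 libraries of LSD1 KO and WT, Peg10 in LSD1 KO kept its direction with adjusted p of 0.0114 to 0.021, and Impact was at the fold threshold without WT library 1 (1.00). In LSD1 CI, Peg10 was not called without either WT library (adjusted p 0.0143 and 0.0174), Zrsr1 not without WT library 2 (0.93) and Mest not without LSD1 CI library 2 (0.95). Sgce, at 17.8 and 15.5 CPM in LSD1 KO and 13.1 and 18.5 CPM in LSD1 CI, against 7.46 and 10.2 CPM in WT, stayed under the fold threshold. Nnat lay the other way, at 9.39 to 15.9 CPM in LSD1 KO and 21.9 to 28.9 CPM in LSD1 CI, against 31.9 to 37.5 CPM in WT. It overlapped with WT in neither mutant and was not called by edgeR.

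In EpiLCs, LSD1 KO differed from WT in 6 of the 8 genes, where 9.49% of all genes tested were called. Peg10 was at 1695 and 2078 CPM in LSD1 KO and 513 and 618 CPM in LSD1 CI, against 345 and 269 CPM in WT. Sgce was at 12.0 and 11.9 CPM in LSD1 KO and 3.13 and 4.01 CPM in LSD1 CI, against 2.88 and 2.08 CPM in WT. LSD1 KO was apart from both other genotypes in each gene. Its log2 fold change against WT was 2.63 ± 0.19 for Peg10 (adjusted p = 0.000573, edgeR), 2.28 ± 0.18 for Sgce (adjusted p = 2.46e-07), 1.41 ± 0.06 for Mest (adjusted p = 1.18e-09), 1.26 ± 0.22 for Plagl1 (adjusted p = 0.000478), 1.15 ± 0.22 for Zrsr1 (adjusted p = 0.00222) and -1.02 ± 0.18 for Nnat (adjusted p = 0.000397). LSD1 KO against LSD1 CI gave 1.73 ± 0.19 for Peg10 (adjusted p = 0.00402, edgeR) and 1.73 ± 0.18 for Sgce (adjusted p = 6.9e-06), the 2 members called, with 3.98% of all genes. No member was called by edgeR in LSD1 CI against WT (2.15% of all genes; 7 of the 8 at an unadjusted p under 0.05), where Mest gave 0.80 (adjusted p = 3.67e-06, edgeR). Without 1 of the LSD1 KO or LSD1 CI libraries Peg10 was no longer called between them (adjusted p 0.0142 to 0.0317), and without WT library 2 Zrsr1 (0.77) and Plagl1 (0.96) were under the fold threshold in LSD1 KO. Zrsr1 was also not called without LSD1 KO library 1 (adjusted p = 0.0241), nor Nnat without WT library 1 (-0.86) or LSD1 KO library 2 (-1.0).

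Peg3 in EpiLCs was at 467 and 533 CPM in LSD1 KO and 688 and 814 CPM in LSD1 CI, against 219 and 115 CPM in WT. The WT libraries differed from each other by nearly as much as from the nearest LSD1 KO library, and the log2 fold changes of 1.59 and 2.18 had adjusted p of 0.0302 and 0.0299 (edgeR). DESeq2 called both (adjusted p = 6.43e-05 and 7.37e-08). Epiblast markers summed to 1530 to 1570 CPM in LSD1 KO EpiLCs and 2340 to 2420 CPM in LSD1 CI EpiLCs, against 2670 to 2760 CPM in WT, and pluripotency markers to 978 to 1030, 692 to 693 and 601 to 650 CPM in the same order. In FBS the pluripotency markers summed to 1040 to 1190 CPM in LSD1 KO and 509 to 602 CPM in LSD1 CI, against 662 to 693 CPM in WT. The 5 trophoblast markers had Elf5 under 1 CPM in every library. In FBS they summed to 51.5 to 54.2 CPM in LSD1 KO and 45.0 to 57.8 CPM in LSD1 CI, against 17.4 to 32.9 CPM in WT. In EpiLCs they summed to 32.5 to 39 CPM in LSD1 KO and 14.8 to 15.5 CPM in LSD1 CI, against 10.8 to 11.5 CPM in WT. They were thus above WT also in LSD1 CI EpiLCs, where Peg10 was not called. The part of these markers in the results was not tested.

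**Figure D4:**
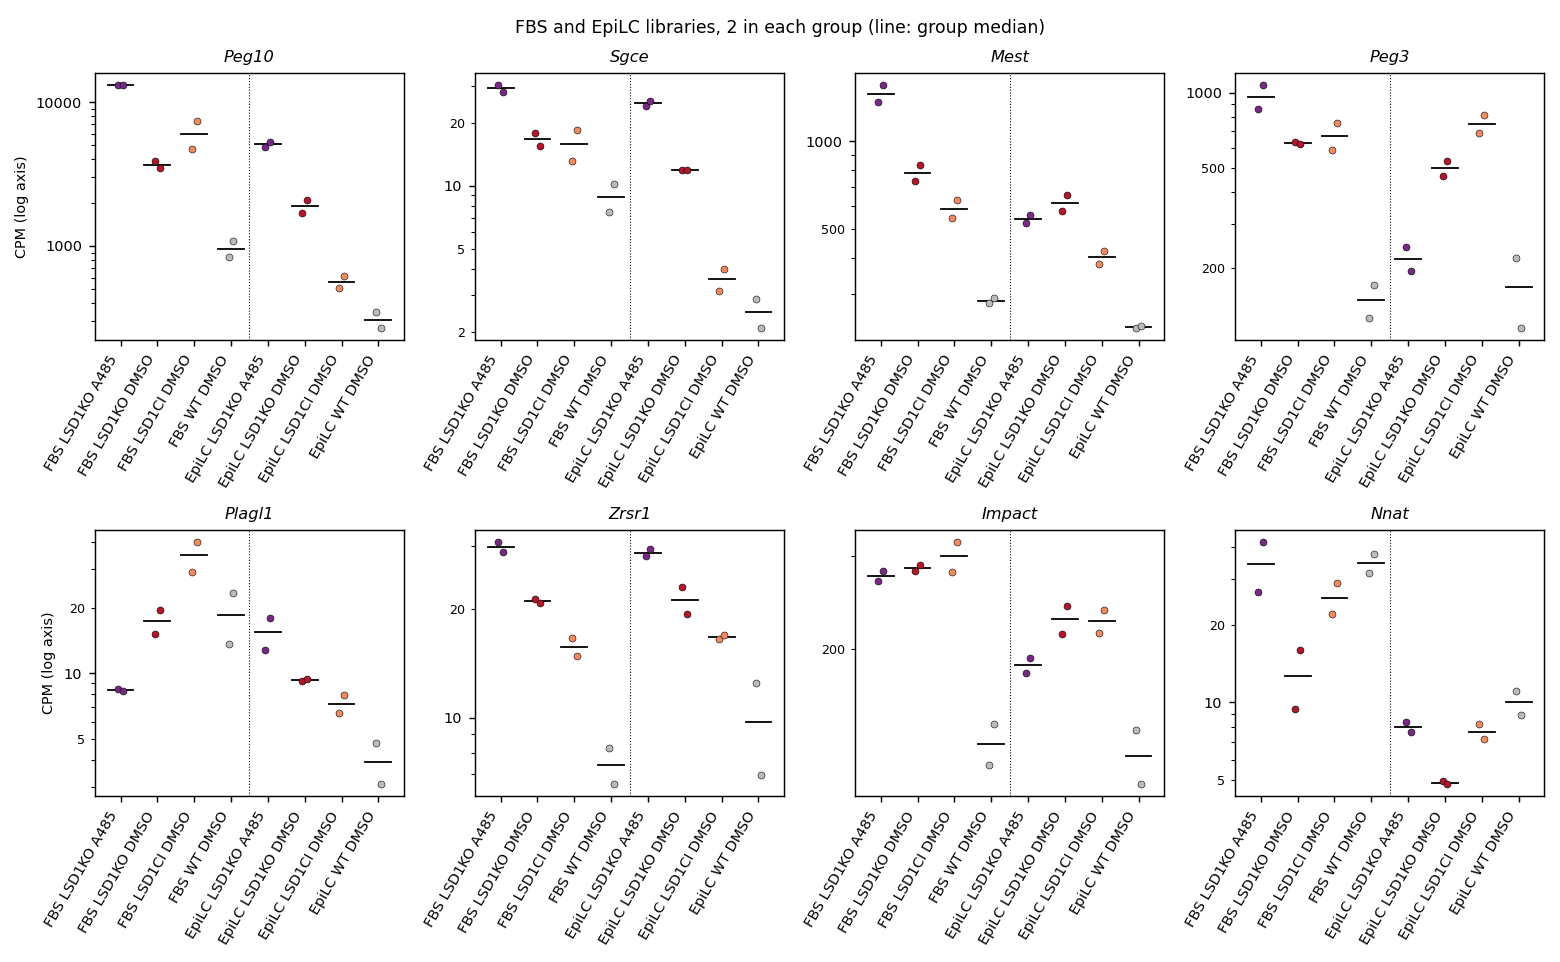
Level of each gene in FBS and EpiLC cultures, in CPM on a log axis; each dot is 1 of 2 libraries per group and each line their median. Peg10 is highest in LSD1 KO cells with A485 in both cultures (13090 and 13100 CPM in FBS, 4874 and 5293 CPM in EpiLCs) and lowest in WT.

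A485 was compared with DMSO in LSD1 KO cells of 4 cultures. By the study's legends the EBs were given a lower dose than the naive ESCs, during differentiation rather than for a single day, and the dose in FBS and EpiLCs is not given in the sources used here, so the cultures' values stand side by side and are not compared. Peg10 was at 471 and 368 CPM with A485, against 124 and 125 CPM with DMSO, in naive ESCs (1.74 ± 0.09, adjusted p = 5.33e-09, edgeR). In FBS it was at 13090 and 13100 CPM with A485, against 3875 and 3459 CPM with DMSO (1.83 ± 0.25, adjusted p = 0.0031, edgeR), and in EpiLCs at 4874 and 5293 CPM, against 1695 and 2078 CPM (1.42 ± 0.18, adjusted p = 0.00231). Both A485 libraries were above both DMSO libraries in all 3 cultures. In EBs Peg10 was at 1350 and 1789 CPM with A485 and 1643 and 1732 CPM with DMSO (-0.05, adjusted p = 0.835, edgeR). Trophoblast markers summed to 115 to 124 CPM with A485 and 51.5 to 54.2 CPM with DMSO in FBS, and to 98.2 to 108 CPM with A485 and 32.5 to 39 CPM with DMSO in EpiLCs. They were lower with A485 in naive ESCs (7.88 to 10.4 CPM, against 18.4 to 20.0 CPM with DMSO) and in EBs (12.1 to 16.0 CPM, against 88.9 to 153 CPM with DMSO). Elf5 and Cdx2 were under 1 CPM in every A485 library, as was Ascl2 in those of ESCs, EBs and EpiLCs. Ascl2 was called lower with A485 in FBS and EpiLCs, against the direction of the sums. In EpiLCs with A485 the sum thus lay mainly in Eomes and Gata3. The part of these markers in the results was not tested. The Peg10 calls in FBS and EpiLCs were lost without 1 library (adjusted p 0.0175 to 0.0222 in FBS and 0.0159 to 0.0198 in EpiLCs for those lost).

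Sgce rose with A485 in naive ESCs, at 22.8 and 20.0 CPM, against 10.7 and 8.39 CPM with DMSO (1.15 ± 0.13, adjusted p = 2.44e-07, edgeR), and in EpiLCs, at 24.1 and 25.6 CPM, against 12.0 and 11.9 CPM (1.05 ± 0.16, adjusted p = 4.49e-05). In EBs it fell, at 41.6 and 29.4 CPM with A485, against 87.3 and 74.3 CPM with DMSO (-1.14 ± 0.16, adjusted p = 0.000268, edgeR). Of the divergent pair only Sgce was called in EBs. These Sgce values lay at the fold threshold without 1 library: 1.00 in ESCs without DMSO library 2, 0.98 in EpiLCs and -0.90 in EBs without A485 library 2. Nnat rose in naive ESCs, at 3.20 and 3.92 CPM with A485, against 0.648 and 0.307 CPM with DMSO (2.86 ± 0.33, adjusted p = 4.65e-07, edgeR), and fell in EBs, at 10.8 and 12.9 CPM, against 45.8 and 67.9 CPM (-2.20 ± 0.20, adjusted p = 5.91e-06). Plagl1 in EBs was at 3.15 and 7.65 CPM with A485, against 65.1 and 100 CPM with DMSO, 14.5-fold lower (-3.85 ± 0.41, adjusted p = 0.000527, edgeR), and Peg3 at 315 and 339 CPM, against 786 and 827 CPM (-1.25 ± 0.12, adjusted p = 1.39e-05). The members called were 3 of 8 in naive ESCs (17.6% of all genes), 4 in EBs (13.8%), 1 in FBS (12.5%) and 2 in EpiLCs (17.6%). Summed pluripotency markers were at 1310 to 1320 CPM in A485 ESCs, against 3500 to 3660 CPM with DMSO, and at 1310 to 1330 CPM in A485 EBs, against 525 to 563 CPM with DMSO, and their part was not tested.

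DOX raised Kdm1a RNA in LSD1Res cells to 969 to 2351 CPM, against 10.9 to 38.0 CPM without DOX. In DKO+LSD1 cells it raised Kdm1a RNA to 1827 to 6205 CPM, against 264 to 272 CPM. Both exceeded the 158 to 235 CPM of the WT libraries. By the study's blots, however, LSD1 protein with DOX was lower than in WT in LSD1Res cells and comparable to WT in DKO+LSD1 cells. In LSD1Res cells Peg10 was at 292, 273, 188 and 157 CPM with DOX, against 331, 303, 729 and 539 CPM without (-1.06 ± 0.37, adjusted p = 0.0744, edgeR). In DKO+LSD1 cells Peg10 was at 385, 386, 899 and 1173 CPM with DOX, against 188, 185, 303 and 341 CPM without (1.46 ± 0.37, adjusted p = 0.0367, edgeR). The groups overlapped in neither line, and the point estimates had opposite signs, but no member was called by edgeR in either line, where 2.37% and 0.332% of all genes were. At an unadjusted p under 0.05, 4 of the 8 differed in LSD1Res and 4 in DKO+LSD1, and DESeq2 called none in LSD1Res. The difference between the lines' DOX effects was 2.52 ± 0.52 for Peg10 (adjusted p = 0.0152, edgeR) and 1.89 ± 0.50 for Sgce (adjusted p = 0.0443), both past the fold threshold only, with 0.640% of all genes called. Samples with the same number paired in these lines, and with the pairing as a block the Sgce difference was called (1.80, adjusted p = 0.00617). With alike libraries summed it was not (1.90, adjusted p = 0.61).

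Mest in LSD1Res cells was at 176, 184, 260 and 210 CPM with DOX, against 284, 275, 420 and 370 CPM without, and did not overlap (-0.69 ± 0.16, adjusted p = 0.00776, edgeR), under the fold threshold. Nnat in DKO+LSD1 cells was at 0.344, 0.340, 0.731 and 1.17 CPM with DOX, against 1.33, 1.67, 1.27 and 2.25 CPM without (-1.36 ± 0.36, adjusted p = 0.0389, edgeR). With the pairing as a block within the compared groups it was called (-1.45, adjusted p = 0.00683). DESeq2 called Peg10 (1.47, adjusted p = 0.00426) and Nnat (-1.36, adjusted p = 0.00586) in DKO+LSD1. In plain LSD1 KO cells Peg10 was at 410 and 350 CPM with DOX and 438 and 480 CPM without, and no member was called by edgeR or DESeq2 or had an unadjusted p under 0.05 (0.0178% of all genes called). Peg10 in the LSD1 KO cells of this experiment was thus above the 92.9 to 194 CPM of the untreated LSD1 KO ESCs.

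Without any mutation, most of the 8 genes rose when WT cells left the naive state. WT EBs against WT ESCs gave log2 fold changes of 5.92 ± 0.28 for Peg10 (adjusted p = 1.79e-14, edgeR), 5.22 ± 0.24 for Sgce (adjusted p = 5.7e-15), 4.48 ± 0.22 for Peg3 (adjusted p = 3.12e-14), 3.87 ± 0.48 for Nnat (adjusted p = 2.52e-07) and 2.25 ± 0.27 for Mest (adjusted p = 1.08e-07). These 5 of 8 rose where 36.8% of all genes tested were called. FBS cells, which also differ from WT ESCs by DMSO, rose in Peg10 (4.90 ± 0.32, adjusted p = 3.9e-11, edgeR), Sgce (3.08 ± 0.31, adjusted p = 2.03e-08), Nnat (2.99 ± 0.62, adjusted p = 0.000489) and Mest (1.89 ± 0.38, adjusted p = 0.000301) and fell in Zrsr1 (-1.06 ± 0.30, adjusted p = 0.00666), with 21.3% of all genes called. EpiLCs, with the same limit, rose in Peg10 (3.26 ± 0.33, adjusted p = 6.77e-08, edgeR), Mest (1.59 ± 0.38, adjusted p = 0.00222), Sgce (1.25 ± 0.35, adjusted p = 0.0074) and Peg3 (1.15 ± 0.31, adjusted p = 0.00525). Plagl1 was at 4.78 and 3.10 CPM in WT EpiLCs, against 18.2 to 83.6 CPM in WT ESCs, the largest fall among the members (-3.82 ± 0.66, adjusted p = 8.51e-05, edgeR), and 16.9% of all genes were called. Leaving out 1 of the 2 differentiated libraries ended the calls of Zrsr1 in FBS (-1.26, adjusted p = 0.0325, and -0.92, adjusted p = 0.118, without library 1 and 2), of Nnat in FBS (2.86, adjusted p = 0.0123, without library 2), of Sgce in EpiLCs (1.01, adjusted p = 0.157, and 1.47, adjusted p = 0.0283) and Mest in EpiLCs (adjusted p 0.0298 and 0.0339), and of Peg3 in EpiLCs (0.62, adjusted p = 0.331, without library 1). The 3 comparisons share the WT ESC libraries. Of 15 neighbours 10 rose and none fell in WT EBs, as did 12 of the 21 other paternally expressed genes with 2 lower, and 15 of the 23 maternally expressed genes with 1 lower.

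The ratio of Peg10 to Sgce, which start 101 bases apart, varied between libraries. Per kilobase of exon its median was 14.6 in WT EBs (6.63 to 21.8), against 6.82 in WT ESCs (4.81 to 22.3), with overlapping ranges. Among untreated mutant ESCs the median was highest in MLL4 KO at 16.9, from 2 libraries far apart, the lower at 3.83. The median was 10.7 in LSD1 KO, 8.28 in MLL4/LSD1 DKO, 7.73 in RCOR1/2 DKO and 6.94 in RCOR1 KO, also above the WT median. It was 6.11 in MLL4KO/LSD1CI, 4.97 in LSD1 CI and 4.66 in RCOR2 KO, below the WT median. In FBS it was 126 in LSD1 KO with A485, 61.9 in LSD1 KO and 107 in LSD1 CI, against 30.5 in WT, and in EpiLCs 57.5, 44.5 and 44.7 in the same mutants, against 35.0 in WT. The ratio was thus higher in the mutants than in WT in these cultures, which was not tested.

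Across the 43 untreated naive ESC libraries, which share genotypes, batches and the WT subsets, the gene most alike to Peg10 was Sgce (Pearson r of log2 CPM 0.93), followed by Lacc1 (0.88), and the genes most alike to Sgce were Peg10 and Lacc1 (0.91). Plagl1 was most like 2510009E07Rik and its overlapping neighbour Hymai (both 0.95), Nnat most like Timm21 and Zfp202 (both 0.92), Mest most like Usp44 and Arfgef3 (both 0.89) and Zrsr1 most like Nlrp5-ps (0.88). Impact was most like Snx10 (0.85) and Peg3 most like Upf1 and Kbtbd2 (both 0.81). Among the members themselves, Mest followed Peg10 and Sgce (both 0.82) and Impact followed Zrsr1 (0.82) and Peg10 (0.72), whereas Plagl1 ran against Nnat (-0.77) and Peg3 (-0.48). These values describe the libraries, and no test was made of them.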

How the data were processed

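RNA was sequenced from libraries in 34 groups with a strand-specific kit after ribosomal RNA depletion. According to the study's methods the authors trimmed the reads with Trim Galore, aligned them to mm9 with STAR (2.7.9a), removed duplicates with Picard (2.25.5) and deposited raw counts per gene from featureCounts, reverse-stranded. Even counts made up 72.2% to 84.7% of the values from 2 to 39, so mates appear to have been counted separately, and halving the counts was an alternative. CPM were computed here on TMM-scaled totals from the deposited counts. Comparisons used edgeR 4.0.16 (R 4.3.3; filterByExpr, TMM, robust quasi-likelihood F-test), with all groups of an experiment in a fit and Benjamini-Hochberg adjustment over all genes tested; the standard error is the log2 fold change over the square root of F. The study used DESeq2, which was an alternative (1.42.0). The fits were tested on simulated counts. The named genes are the 8 members, the genes most alike to each and, from each list, up to 4 with the smallest adjusted p in a comparison. The members and lists were chosen with earlier results of these data known.

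Same-numbered libraries paired in LSD1Res with and without DOX (correlation of deviations 0.683 to 0.730), in DKO+LSD1 (0.609 to 0.676) and between MLL4/LSD1 DKO and MLL4KO/LSD1CI (0.173 to 0.461). The pairing comes from these correlations, not from the labels. Promoter sequences are from RefSeq (GRCm38.p6).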

Additional observations from a re-analysis of the deposited data

Results flagged for a closer look

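In 4 of the 120 sets of 4 to 10 libraries that were tested, 1 library stood apart from the rest of its group by Dixon's test, and chance gives about 1 in 20. Zrsr1 was at 29.9 CPM in MLL4KO/LSD1CI ESC library 4, with the others at 34.0 to 34.9 CPM. Impact was at 216 CPM in LSD1 CI EB library 4, with the others at 300 to 307 CPM, and at 85.0 CPM in RCOR1 KO ESC library 1, with the others at 97.8 to 98.9 CPM. Nnat was at 1.18 CPM in LSD1 CI ESC library 1, with the others at 0.473 to 0.504 CPM.

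The effect in EBs differed from that in ESCs by the test of the difference itself in 13 of 40 cases. With alike libraries summed, which leaves fewer samples, 7 of the 13 were called. Of all genes tested, 18.9% were called in LSD1 KO, 3.25% in LSD1 CI, 0.00% in RCOR1 KO, 6.79% in RCOR2 KO and 20.5% in RCOR1/2 DKO. In LSD1 KO the differences (EB effect minus ESC effect, log2) were -2.40 for Peg10, -1.55 for Sgce, 1.00 for Impact and 4.37 for Nnat (adjusted p = 4.98e-06, edgeR). In LSD1 CI the difference was 3.42 for Nnat (adjusted p = 0.00116, edgeR). In the libraries labelled RCOR2 KO it was -2.59 for Peg3 and -2.35 for Plagl1 (adjusted p = 0.00382, edgeR). In RCOR1/2 DKO it was -3.26 for Peg10, -3.36 for Sgce, -1.58 for Mest (adjusted p = 0.00224, edgeR), -1.68 for Plagl1 (adjusted p = 0.00309), -1.26 for Peg3 and 1.24 for Impact. The Nnat values rest on WT ESC libraries that spread over 0.484 to 10.7 CPM.

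The effect of losing LSD1 without MLL4 differed from that with MLL4 by 2.77 for Peg10, 3.13 for Sgce and 4.14 for Nnat on the log2 scale. With a term for the alignment, the differences of Sgce and Nnat were not called.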

How the results depend on the processing

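Over the comparisons in naive ESCs, 36 of 104 gene and comparison pairs were called, 39 by DESeq2, 29 with only the compared groups in the fit, 26 against the closest WT libraries (24 of the 36 kept), 25 with alike libraries summed (24 kept) and 38 with a term for the alignment. Leaving out 1 library gave 34 to 38 in naive ESCs, 9 to 12 in EBs (12 with all), 3 to 5 in A485 ESCs (3 with all), 8 to 12 in FBS (11 with all) and 7 to 15 in EpiLCs (10 with all). In the DOX lines none was called, 2 were by DESeq2 and 1 with the replicate block within the compared groups. The differences between EBs and ESCs gave 13 calls of 40, and 7 with alike libraries summed, which leaves fewer samples. Of the 896 library values, 34 were under 1 CPM, 13 under 0.5 CPM and 62 under 2 CPM. With the replicate block, where numbers are shared but do not pair the samples, Nnat in RCOR1/2 DKO against WT was 0.12 (-1.69 without) and in RCOR1 KO against WT 1.60 (-0.20 without); the cause was not tested. Where the numbers do pair the samples, the block changed no call other than those given for Nnat and Sgce in the DOX lines. The alternatives with the closest WT libraries, with alike libraries summed and with the replicate block within the compared groups were chosen after seeing the data. Low levels of Sgce and Nnat in ESCs, and groups of 2, limit precision.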
